A study of Mus musculus with 15 samples.

Results

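The genes described here are 41 interferon-stimulated genes of mouse, measured by RNA-seq in cultured bone marrow-derived macrophages (BMDMs) with and without STAT5. They were taken by name from a fixed list, chosen with earlier results of these data known, and all 41 were found among the 55385 genes of the count table. The list holds 4 guanylate-binding proteins (GBPs; Gbp2, Gbp3, Gbp5 and Gbp7) and 4 immunity-related GTPases (Irgm1, Irgm2, Igtp and Iigp1). It also holds 4 IFIT genes, 5 OAS genes, 2 MX genes, 12 other antiviral effectors, 4 RNA sensors and their cofactors, 3 interferon regulatory factors and 3 genes of the PARP9-DTX3L-PARP14 group.

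STAT5 is the transcription factor that signals from the receptor for granulocyte-macrophage colony-stimulating factor (GM-CSF), and the study asked which genes depend on it in macrophages exposed to GM-CSF or to factors shed by breast tumour cells. BMDMs were grown from BALB/c mice aged 6 weeks. The controls, STAT5fl/fl (2 mice, numbered 112 and 113), carry Stat5 flanked by loxP sites and no Cre, whereas STAT5cKO mice (3 mice, numbered 114, 115 and 116) carry the same floxed alleles together with a Csf1r-iCre transgene, which is active across myeloid cells and in some lymphocytes and therefore not in macrophages alone. Cells of each mouse were treated for 2 h in serum-free DMEM, with 20 ng/mL recombinant mouse GM-CSF (rmGM-CSF), or with medium conditioned by 4T1 cells, a mouse mammary tumour cell line (4T1 CM), giving 15 libraries in 6 groups of 2 or 3 mice. 

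Interferons act through a pair of pathways that overlap in their targets. Type I interferons signal through IFNAR1 and IFNAR2 to a complex of STAT proteins and IRF9, which binds the interferon-stimulated response element (ISRE) and switches on the IFIT, OAS and MX genes, whose products recognise viral RNA, degrade it or trap viral nucleocapsids. Interferon gamma signals through IFNGR1 and IFNGR2 to STAT dimers, which bind the gamma-activated site (GAS) and induce IRF1, and both pathways feed the GBPs and immunity-related GTPases, which assemble on the vacuoles of intracellular bacteria and parasites. Dimers of STAT5 bind the same kind of palindrome as the GAS.

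The promoters of 6 of these genes are shown because the genes differed in their response to rmGM-CSF. These promoters carry the letters of either motif or of both. Each runs from 250 bases before to 50 bases after the annotated start (RefSeq, GRCm38.p6), 5′ to 3′ on the gene's own strand, with capitals marking each match to a GAS (TTCNNNGAA) or to an ISRE (GAAANNGAAA on either strand; matches that overlap were each kept). Gbp5 (chr3:142496684-142496983, plus strand) held GAS matches at -245 and -52 and an ISRE match at -165, counted from the start to the first letter of the match. Gbp7 (chr3:142530086-142530385, plus strand) held GAS matches at -106 and -87 and an ISRE match at -53. In Igtp (chr11:58199306-58199605, plus strand) a GAS match at -45 was followed by an ISRE match at -34. Irf1 (chr11:53769764-53770063, plus strand) held a GAS match at -90 and no ISRE match, and its other annotated promoter, not shown, held neither. Gbp2 (chr3:142620413-142620712, plus strand) held an ISRE match at -59 and no GAS match, and Ifit1 (chr19:34640639-34640938, plus strand) held ISRE matches at -104 and -85 and no GAS match.
Gbp5: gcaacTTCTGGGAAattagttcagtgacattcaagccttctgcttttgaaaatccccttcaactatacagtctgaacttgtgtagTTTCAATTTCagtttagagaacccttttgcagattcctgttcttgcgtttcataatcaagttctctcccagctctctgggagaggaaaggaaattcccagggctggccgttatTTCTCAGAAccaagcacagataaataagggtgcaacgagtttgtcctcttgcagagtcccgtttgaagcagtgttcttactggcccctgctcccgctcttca
Gbp7: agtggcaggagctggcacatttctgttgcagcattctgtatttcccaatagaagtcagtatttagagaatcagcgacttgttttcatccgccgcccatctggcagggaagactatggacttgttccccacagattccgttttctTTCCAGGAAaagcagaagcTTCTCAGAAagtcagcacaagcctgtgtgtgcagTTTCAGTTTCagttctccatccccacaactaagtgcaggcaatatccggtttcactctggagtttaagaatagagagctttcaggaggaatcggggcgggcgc
Igtp: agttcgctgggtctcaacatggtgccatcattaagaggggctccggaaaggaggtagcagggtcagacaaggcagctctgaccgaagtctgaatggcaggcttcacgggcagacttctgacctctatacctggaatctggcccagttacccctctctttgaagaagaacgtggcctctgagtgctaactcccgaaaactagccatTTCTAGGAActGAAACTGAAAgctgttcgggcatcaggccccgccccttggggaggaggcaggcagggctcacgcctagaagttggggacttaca
Irf1: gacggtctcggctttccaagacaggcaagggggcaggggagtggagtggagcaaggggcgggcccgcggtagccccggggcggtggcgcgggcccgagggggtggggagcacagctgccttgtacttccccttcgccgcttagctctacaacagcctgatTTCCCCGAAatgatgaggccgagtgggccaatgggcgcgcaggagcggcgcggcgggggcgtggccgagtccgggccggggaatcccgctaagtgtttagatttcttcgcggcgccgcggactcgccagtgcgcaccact
Gbp2: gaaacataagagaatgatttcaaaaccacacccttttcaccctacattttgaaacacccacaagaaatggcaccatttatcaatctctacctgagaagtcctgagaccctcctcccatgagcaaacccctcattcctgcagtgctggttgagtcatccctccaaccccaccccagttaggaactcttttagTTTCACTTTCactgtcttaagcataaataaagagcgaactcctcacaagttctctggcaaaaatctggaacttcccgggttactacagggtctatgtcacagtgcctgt
Ifit1: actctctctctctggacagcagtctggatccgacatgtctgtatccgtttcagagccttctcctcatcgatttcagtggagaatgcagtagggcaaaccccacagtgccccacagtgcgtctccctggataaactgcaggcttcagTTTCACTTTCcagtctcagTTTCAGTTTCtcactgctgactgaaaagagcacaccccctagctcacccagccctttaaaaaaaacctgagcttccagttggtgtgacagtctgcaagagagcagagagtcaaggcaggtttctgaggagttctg

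A promoter was found for 31 of the 41 genes. Of the 7 GBP and immunity-related GTPase genes with a promoter, 7 held an ISRE match and 4 also held a GAS match (Gbp5, Gbp7, Irgm2 and Igtp). Of the 8 IFIT and OAS genes with a promoter, 5 held an ISRE match, 2 held a GAS match (Ifit2 and Oas1a), and 1 held both (Oas1a). Among the promoters of 27025 genes, 9.55% of genes held a GAS match, 3.99% an ISRE match and 0.54% both. A match is a description of the letters and no evidence of binding.

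The libraries held 16016736 to 22883108 counted reads each. The labels held: Stat5a ran from 29.0 to 45.1 CPM (counts scaled to a common library total) in the STAT5fl/fl libraries and reached at most 0.142 CPM in the STAT5cKO libraries, and Stat5b ran from 60.9 to 77.8 CPM against at most 0.189 CPM. T and NK cell markers summed to 0.155 to 1.32 CPM (5 of 8 genes had no read in any library), and the markers of plasmacytoid dendritic cells, which make type I interferon, summed to 0.447 to 0.994 CPM. Of the 5 conventional dendritic cell markers, 4 did not pass the filter on low counts, and the 5 summed to 1.99 to 4.92 CPM in STAT5fl/fl and 2.81 to 3.24 CPM in STAT5cKO with rmGM-CSF, against 0.956 to 0.970 and 1.15 to 1.44 CPM with DMEM. The fifth, Zbtb46, ran from 0.506 to 0.871 CPM with DMEM and from 1.66 to 3.86 CPM with rmGM-CSF over both genotypes, and was called higher in both. The sum of the 8 macrophage markers was higher in STAT5cKO in every treatment, at 31140 to 36860 against 24650 to 25060 CPM with DMEM. Lyz2, which made up most of that sum, was called higher by 0.60 to 0.63 on the log2 scale in the 3 treatments. The markers did not all go the same way. With DMEM, Adgre1, Mertk and Cd14 were also higher in CPM in every STAT5cKO library than in both STAT5fl/fl libraries, as for 19.4% of all tested genes. Cd68, Itgam and Fcgr1 were lower in every STAT5cKO library, as for 20.5%, and for Csf1r the genotypes overlapped. Their part in the results below was not tested. In bulk RNA, fewer cells of a type and less RNA per cell cannot be told apart. 1 library stood apart, that of STAT5cKO mouse 115 with 4T1 CM: Saa3, an acute-phase gene, was at 629.7 CPM against 4.31 and 6.53 CPM in the other 2 mice of its group, and Ccl5, a chemokine gene, was at 124.4 CPM against 3.74 and 5.17 CPM. Calls between treatments that are lost without that library are named where they occur.

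All 41 genes passed the filter on low counts (more than 1 CPM in at least 2 libraries), as did 13005 genes in all. Log2 fold changes are given ± SE, and a gene was called where edgeR's quasi-likelihood test over all 13005 genes gave an adjusted p below 0.01. In unstimulated STAT5fl/fl BMDMs the genes spanned a wide range of levels per kilobase of exon (RPKM). Bst2, which tethers budding virions to the cell surface, had the highest mean at 91.1 RPKM, followed by Trim25, the ubiquitin ligase of the RIG-I pathway, at 52.8 RPKM and Parp14 at 38.8 RPKM. The lowest were Gbp5 at 0.556 RPKM, Iigp1 at 0.682 RPKM and Gbp7 at 1.50 RPKM. IFIT and OAS genes lay between 2.89 RPKM (Ifit3b) and 26.5 RPKM (Oas2). With rmGM-CSF the order of the GBPs changed: in STAT5fl/fl, Gbp2 had a mean of 45.5 RPKM, Gbp5 of 31.8, Gbp7 of 20.6 and Gbp3 of 19.6 RPKM.

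The first question was how rmGM-CSF changed these genes in cells with STAT5. Of the 41 genes, 14 were called higher with rmGM-CSF than with DMEM in STAT5fl/fl, where 15.9% of all tested genes were, and 2 were called lower, where 12.6% were. Their median log2 fold change was 0.19, against -0.01 over all tested genes. The families differed: 4 of 4 GBPs rose, 2 of 4 immunity-related GTPases rose, and 0 of 9 IFIT and OAS genes were called in either direction. The comparisons of rmGM-CSF and of 4T1 CM with DMEM share the DMEM libraries.

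Gbp5, a GBP that promotes inflammasome assembly, was at 3.96 and 3.42 CPM with DMEM in the 2 STAT5fl/fl mice and at 189.7 and 232.2 CPM with rmGM-CSF. It was the lowest of the 4 GBPs before and the highest in CPM after, a 57.3-fold rise (log2 5.84 ± 0.22, adjusted p = 1.53e-12). In STAT5cKO it was at 2.35, 2.61 and 3.54 CPM with DMEM and at 45.6, 56.4 and 60.2 CPM with rmGM-CSF. The gene still rose without STAT5, by 18.9-fold (log2 4.24 ± 0.20, adjusted p = 2.13e-11), and every STAT5cKO library with rmGM-CSF lay below both STAT5fl/fl libraries.

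Gbp7, which directs antimicrobial proteins to pathogen vacuoles, went from 9.15 and 7.68 CPM to 100.5 and 130.5 CPM in STAT5fl/fl. In STAT5cKO it went from 7.40, 5.05 and 5.85 CPM to 17.1, 20.0 and 25.6 CPM. The rise was 13.8-fold with STAT5 (log2 3.78 ± 0.23, adjusted p = 5e-10) and 3.41-fold without it (log2 1.77 ± 0.21, adjusted p = 4.67e-06), and the genotypes did not overlap with rmGM-CSF. An unnamed gene model, Gm43802, shares 637 bases (11.3%) of the exonic length of Gbp7 on the same strand, so its reads could not be split from those of Gbp7 there.

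Gbp2, which coats vacuoles of bacteria and parasites, went from 19.1 and 20.1 CPM to 98.9 and 130.2 CPM in STAT5fl/fl, and from 15.5, 17.2 and 18.8 CPM to 52.7, 64.0 and 61.0 CPM in STAT5cKO. Gbp3 went from 11.4 and 9.66 CPM to 59.5 and 68.4 CPM in STAT5fl/fl, and from 8.74, 6.36 and 9.15 CPM to 24.9, 26.2 and 32.5 CPM in STAT5cKO. Both rose in both genotypes, with log2 fold changes of 2.55 ± 0.15 and 1.79 ± 0.13 for Gbp2 and of 2.61 ± 0.18 and 1.77 ± 0.16 for Gbp3 in STAT5fl/fl and STAT5cKO, respectively. The 4 GBP genes lie within 1 cluster on the plus strand of chromosome 3 (GRCm38, chr3:142493978-142638008), with Gbp2b between Gbp3 and Gbp2. They are alike in sequence, and reads that align equally well to several of them were discarded before counting.

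**Figure D1:**
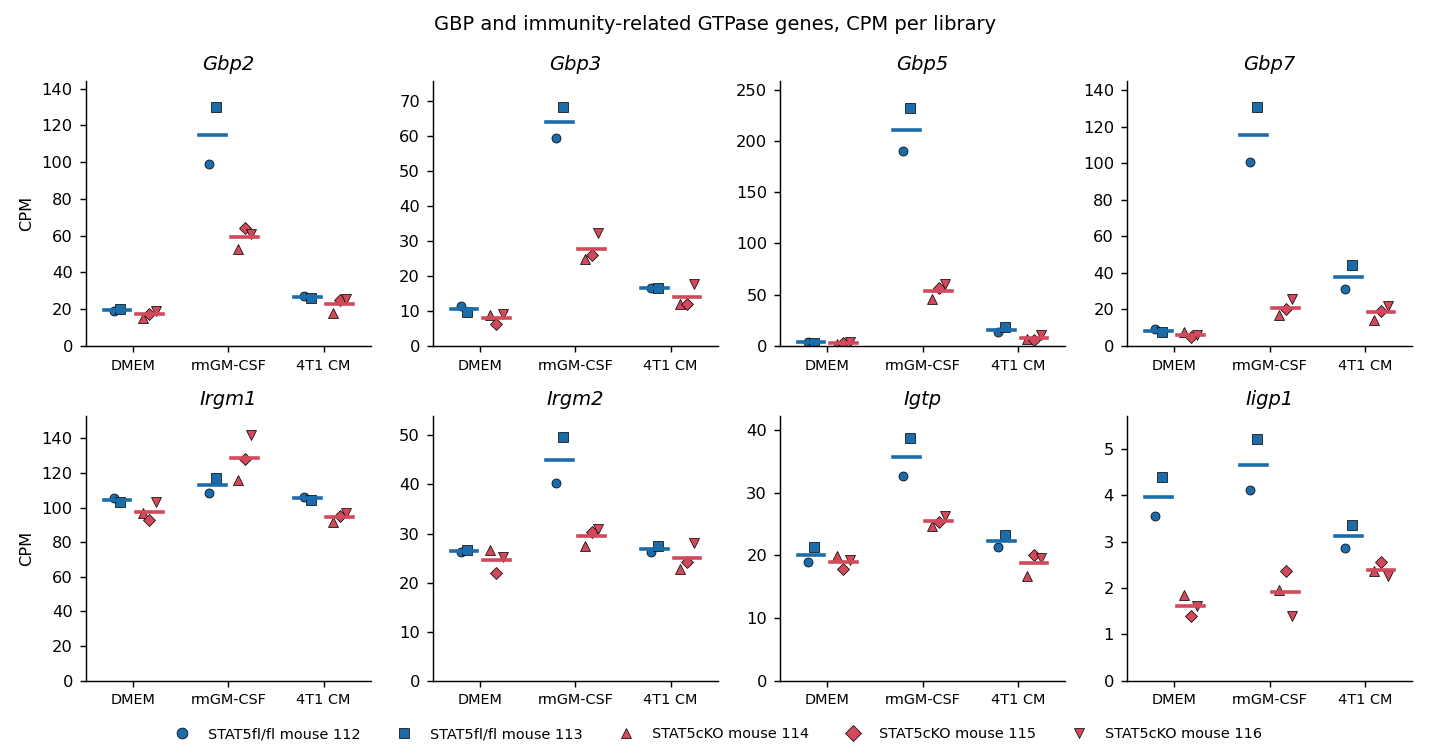
CPM (linear axis from 0) of the 4 GBP and 4 immunity-related GTPase genes in each of the 15 libraries, by treatment and genotype, with points for mice and short lines for group means. The GBPs stand highest in STAT5fl/fl with rmGM-CSF, where Gbp5 was at 189.7 and 232.2 CPM, and the STAT5cKO points with rmGM-CSF lie between them and the DMEM points.

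The immunity-related GTPases moved less. Igtp, which guards host membranes from attack by its own family, was at 18.9 and 21.3 CPM with DMEM and 32.7 and 38.8 CPM with rmGM-CSF in STAT5fl/fl, and at 17.9 to 19.9 and 24.7 to 26.3 CPM in STAT5cKO. Irgm2, of the same regulatory subgroup, was at 26.1 and 26.6 CPM with DMEM and 40.4 and 49.6 CPM with rmGM-CSF in STAT5fl/fl, and at 21.9 to 26.6 and 27.5 to 31.0 CPM in STAT5cKO. Igtp rose in STAT5fl/fl by 0.83 ± 0.11 on the log2 scale (adjusted p = 7.9e-06) and in STAT5cKO by 0.42 ± 0.09 (adjusted p = 0.00155; 0.0256 without mouse 115 and 0.0193 without mouse 116). Irgm2 rose in STAT5fl/fl by 0.77 ± 0.12 (adjusted p = 3.92e-05; 0.0134 without mouse 113) and had a value of 0.27 ± 0.10 in STAT5cKO (adjusted p = 0.0398). Irgm2 and Igtp overlap on chromosome 11 and share 162 exonic bases, so a small part of their counts may be mixed or lost.

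Irgm1, which protects macrophages from mycobacteria and keeps other family members inactive, showed the opposite order: it was called higher with rmGM-CSF in STAT5cKO (0.40 ± 0.07, adjusted p = 0.000179) and had a value of 0.12 ± 0.08 in STAT5fl/fl (adjusted p = 0.288). Its CPM was 103 and 105.6 with DMEM and 108.7 and 117.1 with rmGM-CSF in STAT5fl/fl, and 92.7 to 103.2 and 116 to 142 in STAT5cKO. The genotypes overlapped with either treatment. Iigp1, an effector GTPase that disrupts parasite vacuoles, stayed at 1.39 to 5.21 CPM in every library with DMEM or rmGM-CSF and was not called with rmGM-CSF in STAT5fl/fl (0.24 ± 0.20) or STAT5cKO (0.28 ± 0.23).

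The 9 IFIT and OAS genes gave a different picture. With edgeR's quasi-likelihood test 0 of 9 were called with rmGM-CSF in STAT5fl/fl and 0 of 9 in STAT5cKO, with 3 and 2 of them at an unadjusted p below 0.05 and 0 and 0 called by DESeq2. In STAT5fl/fl the values of the 4 IFIT genes, which sequester foreign RNA ends, were all below 0, from -0.63 ± 0.23 (Ifit3b, adjusted p = 0.039) through -0.33 ± 0.12 (Ifit2) and -0.32 ± 0.10 (Ifit3) to -0.01 ± 0.13 (Ifit1). With the mouse as a replicate block Ifit3b was called lower (-0.64, adjusted p = 0.00849). Ifit3 and Ifit3b are near-identical copies, so the split of reads between them is uncertain. The OAS family includes the enzymes that make the oligoadenylates that activate RNase L. The OAS genes had values of -0.17 ± 0.09 (Oas3) to 0.12 ± 0.12 (Oasl1) in STAT5fl/fl and of 0.03 ± 0.07 (Oas3) to 0.22 ± 0.10 (Oasl1) in STAT5cKO.

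Per library, Ifit2 was at 81.8 and 81.7 CPM with DMEM and 58.8 and 70.7 CPM with rmGM-CSF in STAT5fl/fl, and at 52.7 to 64.9 and 53.3 to 62.6 CPM in STAT5cKO. Oas2 was at 129.3 and 106.4 CPM with DMEM and 118.2 and 112.5 CPM with rmGM-CSF in STAT5fl/fl, and at 98.6 to 139.9 and 127 to 129.8 CPM in STAT5cKO. Oasl2 was at 145.8 and 134.1 CPM with DMEM and 132.3 and 144.1 CPM with rmGM-CSF in STAT5fl/fl, and at 111.8 to 127.8 and 127.9 to 145.6 CPM in STAT5cKO. For Oas2 and Oasl2 the DMEM and rmGM-CSF libraries of STAT5fl/fl overlapped. For Ifit2 they did not, but its change was not called. The share of all tested genes without overlap between these treatments was not computed.

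The contrast between the families was present in each mouse. The mean log2 change from DMEM to rmGM-CSF over the GBP and immunity-related GTPase genes, minus that over the IFIT and OAS genes, was 2.22 ± 0.0927 (SD, n = 2) in STAT5fl/fl and 1.27 ± 0.149 (SD, n = 3) in STAT5cKO. The GBPs alone changed by 3.43 and 3.90 in the STAT5fl/fl mice and by 2.17, 2.57 and 2.42 in the STAT5cKO mice. The immunity-related GTPases changed by 0.42 and 0.55, and by 0.18, 0.54 and 0.26, so that their genotypes overlapped. The IFIT and OAS genes changed by -0.23 and -0.06 in STAT5fl/fl and by -0.08, 0.12 and 0.21 in STAT5cKO. These family means are a description of chosen genes and carry no test.

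**Figure D2:**
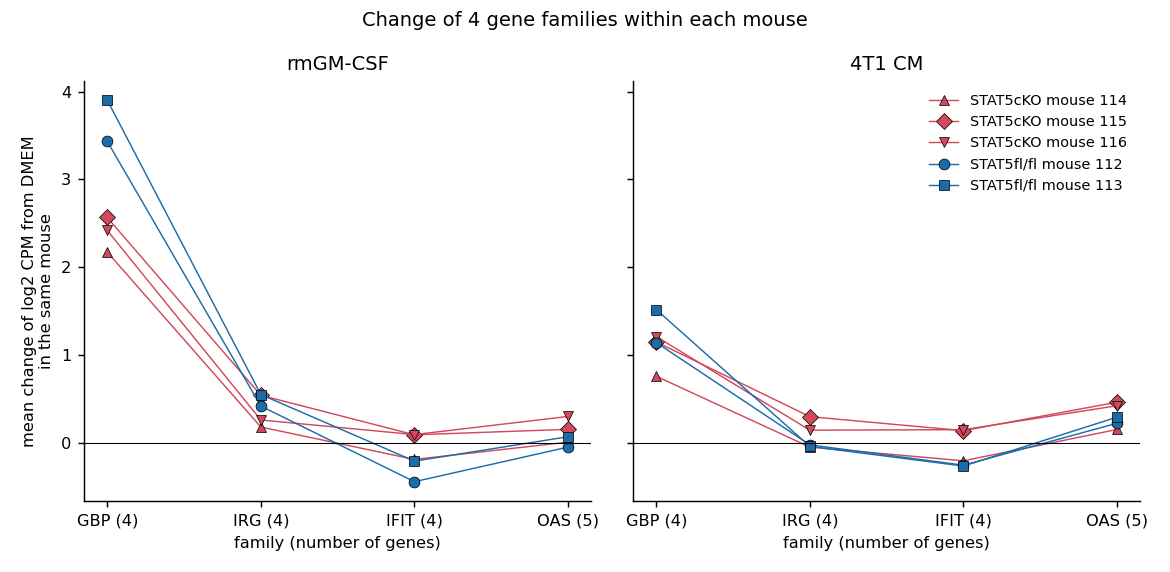
Mean change in log2 CPM from DMEM in each mouse (1 point a mouse, by genotype) for the GBP, immunity-related GTPase, IFIT and OAS genes, with rmGM-CSF and with 4T1 CM. With rmGM-CSF the GBPs changed by 3.43 and 3.90 in STAT5fl/fl and by 2.17 to 2.57 in STAT5cKO, while the IFIT points lie from -0.45 to 0.09 and the OAS points from -0.05 to 0.30.

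Outside these families, Irf1, the factor that interferon gamma induces and that drives GBP transcription, had the largest change. It went from 86.6 and 86.6 CPM to 342.5 and 337.1 CPM in STAT5fl/fl and from 73.5, 74.9 and 79.9 CPM to 257.6, 230.9 and 229.5 CPM in STAT5cKO. The log2 rise was 1.97 ± 0.09 and 1.65 ± 0.07, respectively (adjusted p = 1.38e-11 and 1.37e-11). With rmGM-CSF all STAT5cKO libraries were below the STAT5fl/fl libraries, as for 24.7% of all tested genes. Irf7, which amplifies type I interferon production, was at 104.5 to 121.8 CPM in every library with DMEM or rmGM-CSF, and Irf9, the DNA-binding subunit of the complex that type I interferons activate, at 75.5 to 92.5 CPM. Neither was called with rmGM-CSF in either genotype.

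Parp14, an ADP-ribosyltransferase, rose to the same extent in both genotypes (0.81 ± 0.09 and 0.81 ± 0.07), and Dtx3l, a ubiquitin ligase, rose by 0.30 ± 0.08 and 0.39 ± 0.06. Mx1 and Mx2, dynamin-like GTPases that block viral replication, were not called (0.04 ± 0.16 and 0.14 ± 0.19 in STAT5fl/fl, 0.29 ± 0.13 and 0.20 ± 0.15 in STAT5cKO), nor were Bst2, Ifi44, an antiviral effector, or Ddx58, which encodes RIG-I. The genes called lower in STAT5fl/fl were Trim25 (-0.78 ± 0.06, adjusted p = 3.8e-08) and Usp18, the protease that removes ISG15 and blocks signalling at IFNAR2 (-0.68 ± 0.12, adjusted p = 0.000149). In STAT5cKO, where 17 of the 41 genes were called higher (13.3% of all tested genes were) and 1 lower (10.2%), the gene called lower was Trim25 (-0.53 ± 0.05), and Usp18 had a value of -0.14 ± 0.09.

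**Figure D3:**
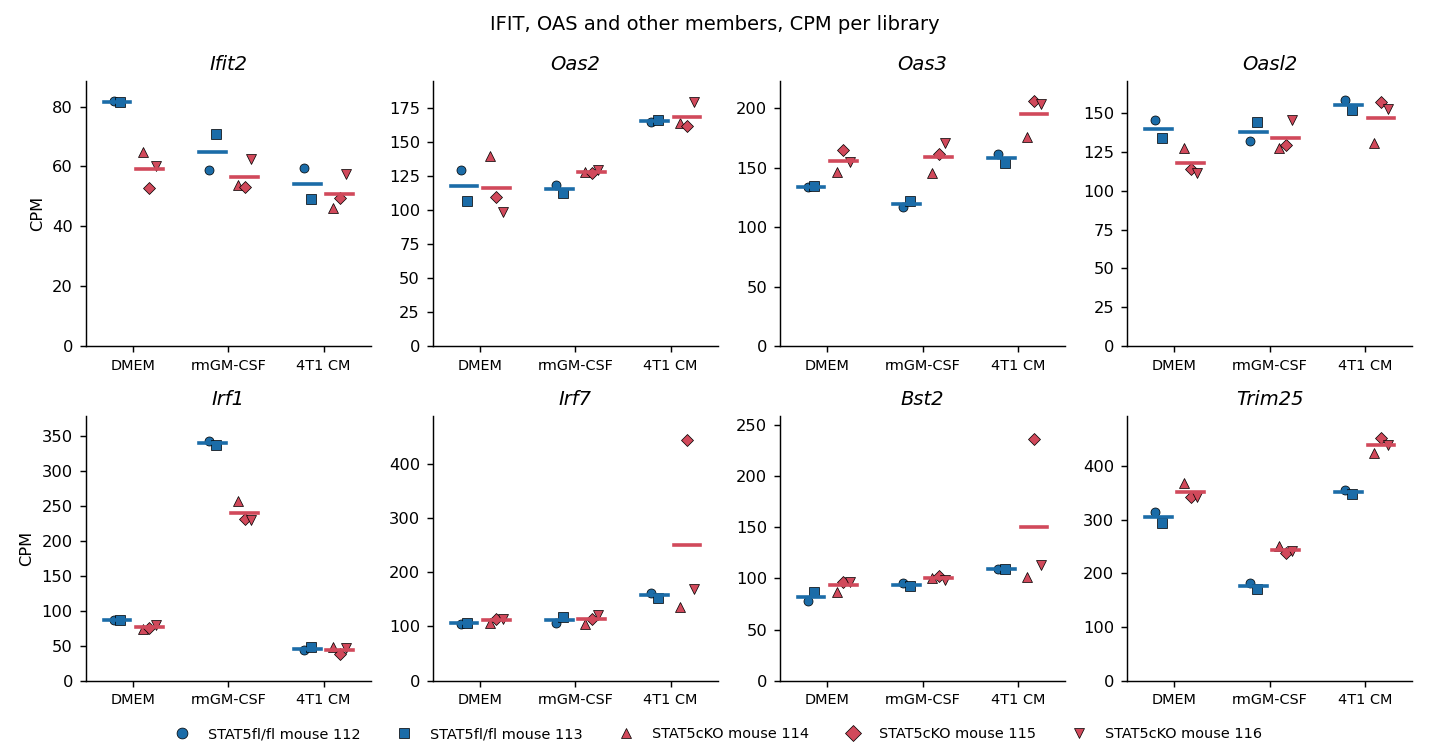
CPM (linear axis from 0) of Ifit2, Oas2, Oas3, Oasl2, Irf1, Irf7, Bst2 and Trim25 in each library, by treatment and genotype, with points for mice and short lines for group means. Irf1 is highest with rmGM-CSF, at 342.5 and 337.1 CPM in STAT5fl/fl, and the STAT5cKO library of mouse 115 with 4T1 CM stands alone for Irf7 at 444.1 CPM and Bst2 at 236.7 CPM.

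The second question was which of the genes differed between STAT5cKO and STAT5fl/fl BMDMs within a treatment. DESeq2 called 3 of the 41 lower and 0 higher with DMEM, and 557 of all 13005 tested genes in either direction. With edgeR 10 of the 41 had an unadjusted p below 0.05, a share not computed over all genes. At the threshold edgeR called 1 of 41 lower and 0 higher with DMEM, where 1.55% and 0.938% of all tested genes were. The gene called was Iigp1, at 3.55 and 4.39 CPM in STAT5fl/fl and 1.84, 1.39 and 1.61 CPM in STAT5cKO (-1.30 ± 0.21, adjusted p = 0.00122; 0.053 without mouse 113, with 1 STAT5fl/fl mouse left). Ifit2 (-0.46 ± 0.11, adjusted p = 0.018) and Ifit3 (-0.39 ± 0.09, adjusted p = 0.0159) missed the threshold, while DESeq2 and the likelihood ratio test each called 2 of the 4 IFIT genes lower. Every STAT5cKO library was below both STAT5fl/fl libraries for Ifit2 and Ifit3, as was so for 20.5% of all tested genes. None of the 4 GBPs was called, with values from -0.46 ± 0.26 (Gbp7) to -0.19 ± 0.15 (Gbp2); DESeq2 also called 0, and 0 had an unadjusted p below 0.05.

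With rmGM-CSF 8 of 41 were called lower in STAT5cKO, where 6.24% of all tested genes were, and 3 were called higher, where 3.57% were. The median over the 41 genes was -0.08, against 0.00 over all tested genes. GBP and immunity-related GTPase genes made up 7 of the 8 called lower, and their median was -1.08. Of the IFIT and OAS genes 0 of 9 were called lower and 1 higher, with a median of 0.08.

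The largest differences were those of Gbp7 (-2.48 ± 0.18, adjusted p = 2.49e-08) and Gbp5 (-1.97 ± 0.15, adjusted p = 3.31e-08). Gbp3 (-1.21 ± 0.14, adjusted p = 1.12e-05) and Gbp2 (-0.95 ± 0.13, adjusted p = 3.41e-05) followed. For each of the 4 all STAT5cKO libraries lay below both STAT5fl/fl libraries, as 24.7% of all tested genes did, and each was called in all 13 alternative analyses, those that left out a mouse included. Among the immunity-related GTPases, Iigp1 was lower (-1.26 ± 0.21, adjusted p = 0.000422), at 1.41 to 2.37 CPM against 4.11 and 5.21 CPM. Irgm2 (-0.61 ± 0.10, adjusted p = 0.000484) and Igtp (-0.50 ± 0.10, adjusted p = 0.00147) were lower too, and Irgm1 was not called (0.19 ± 0.08, adjusted p = 0.105). These 3 calls rested on mouse 113: without it the adjusted p was 0.0298 for Iigp1, 0.0533 for Irgm2 and 0.0781 for Igtp. Irf1 was the other gene called lower (-0.51 ± 0.08, adjusted p = 0.000177).

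The 3 genes called higher in STAT5cKO were Trim25, Usp18 and Oas3. Trim25 was at 182.6 and 171.6 CPM in STAT5fl/fl and 251, 237.1 and 241.4 CPM in STAT5cKO (0.46 ± 0.06, adjusted p = 3.22e-05), and with DMEM its value was 0.21 ± 0.06 (adjusted p = 0.0401). Usp18 was at 16.8 and 19.0 CPM against 26.3, 27.2 and 28.4 CPM (0.60 ± 0.11, adjusted p = 0.000744; 0.0176 without mouse 112). Both are among the genes that were lower with rmGM-CSF in STAT5fl/fl. Their STAT5cKO libraries lay above the STAT5fl/fl libraries, as for 24.3% of all tested genes. Oas3 was at 116.8 and 122.1 CPM against 145.5, 161.1 and 171.1 CPM (0.41 ± 0.08, adjusted p = 0.00148), a call that was lost without mouse 112 (adjusted p = 0.0427), 113 (0.0257) or 116 (0.0118). With DMEM Oas3 was also higher in every STAT5cKO library, at 146.7, 165.2 and 154.8 CPM against 133.6 and 134.3 CPM, as were 19.4% of all tested genes. Its value of 0.22 ± 0.08 was not called there (adjusted p = 0.116).

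**Figure D4:**
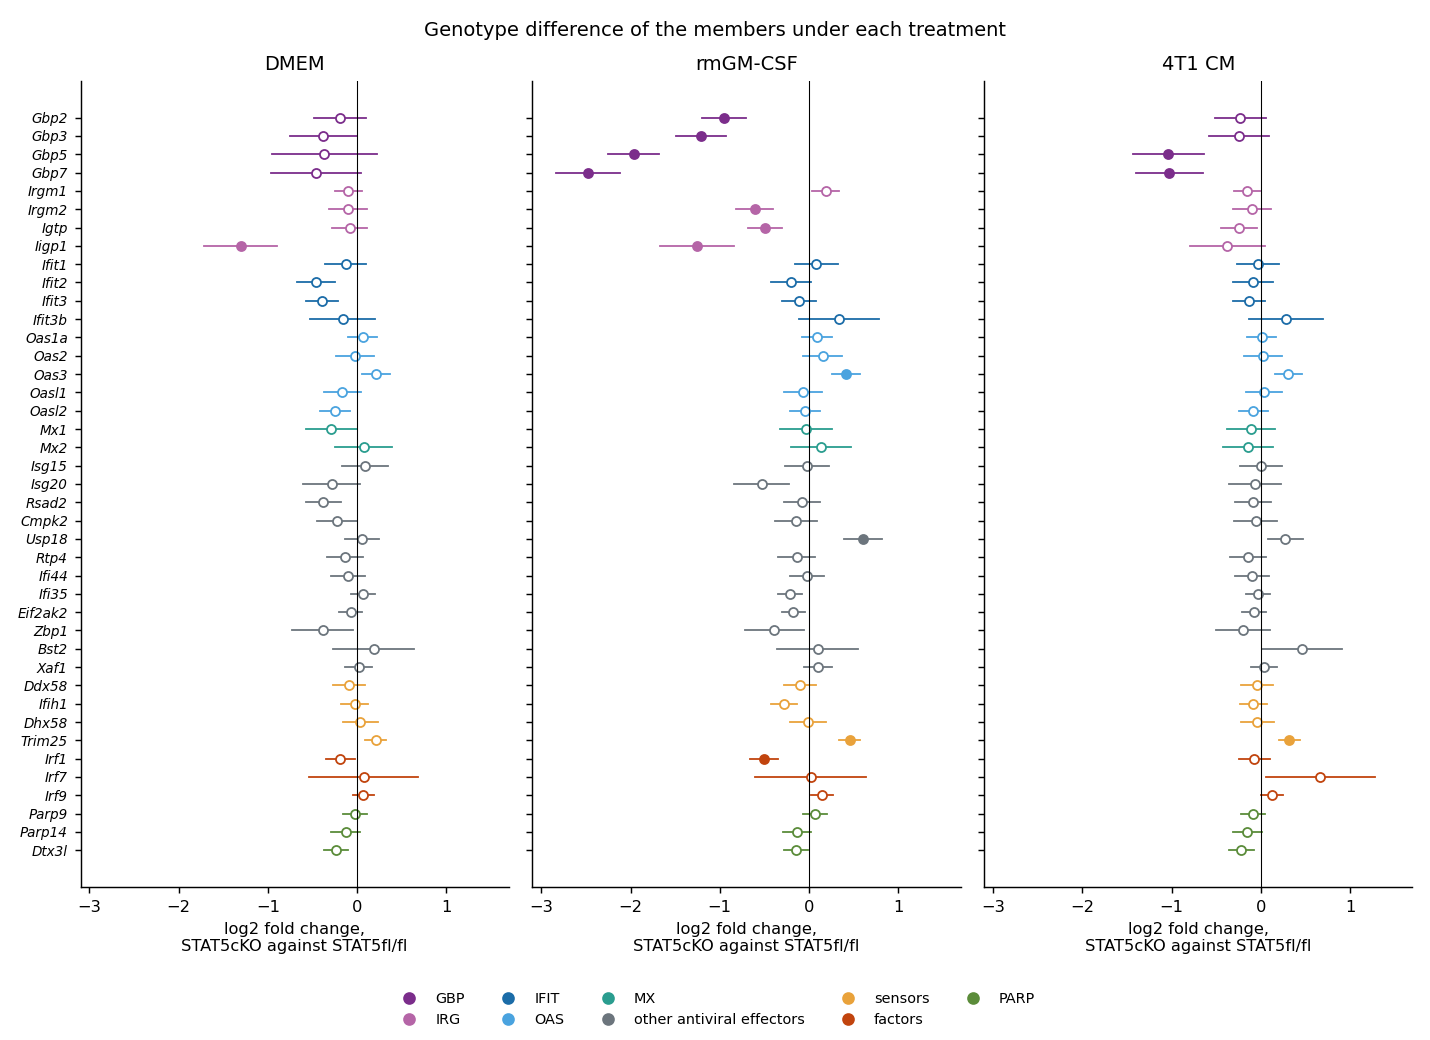
Log2 fold change of STAT5cKO over STAT5fl/fl with its 95% confidence interval for the 41 genes with DMEM, rmGM-CSF and 4T1 CM, grouped by family, with filled points for genes called at an adjusted p below 0.01. With rmGM-CSF, Gbp7 (-2.48) and Gbp5 (-1.97) lie farthest left and 7 of the 8 GBP and immunity-related GTPase genes are filled, while most IFIT and OAS points lie near 0.

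Whether the response to rmGM-CSF itself differed between the genotypes was tested as an interaction, the log2 change from DMEM in STAT5cKO minus that in STAT5fl/fl. Of the 41 genes 2 were called, both with a smaller rise in STAT5cKO, where 2.22% of all tested genes had a negative interaction called and 0.884% a positive one. They were Gbp7 (-2.01 ± 0.32, adjusted p = 0.000647) and Gbp5 (-1.60 ± 0.34, adjusted p = 0.00686). The call of Gbp7 was lost without mouse 113 (-1.69, adjusted p = 0.025), and that of Gbp5 without mouse 112 (adjusted p = 0.023), 113 (0.135), 114 (0.0133) or 115 (0.0189). With the mouse as a replicate block, which takes out what all 3 libraries of a mouse share, 4 genes were called: Gbp7 (-2.00, adjusted p = 2.91e-05), Gbp5 (-1.58, adjusted p = 8.07e-05), Gbp2 (-0.75, adjusted p = 0.00141) and Gbp3 (-0.82, adjusted p = 0.00418). Without the block the values were -0.76 ± 0.20 for Gbp2 (adjusted p = 0.0313) and -0.83 ± 0.24 for Gbp3 (adjusted p = 0.0584). None of the 9 IFIT and OAS genes was called, none had an unadjusted p below 0.05 and DESeq2 called 0, with values from 0.03 (Oas1a) to 0.50 (Ifit3b), all above 0.

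The third question was what 4T1 CM did to the same genes. In STAT5fl/fl 13 of 41 were called higher with 4T1 CM than with DMEM (19.2% of all tested genes were) and 2 lower (18.2%). In STAT5cKO 21 of 41 were called higher (19.3% of all tested genes were) and 1 lower (18.4%). The medians were 0.24 and 0.33, against 0.02 and 0.01 over all tested genes. Without the library of mouse 115 with 4T1 CM 19 genes were called higher and 1 lower in STAT5cKO.

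Gbp5 was at 13.6 and 18.4 CPM with 4T1 CM in STAT5fl/fl and 6.48, 6.29 and 10.5 CPM in STAT5cKO. It rose in both genotypes (2.12 ± 0.25 and 1.45 ± 0.24), far less than with rmGM-CSF. Gbp7 was at 31.0 and 44.3 CPM against 14.1, 19.1 and 22.2 CPM and rose in both (2.16 ± 0.23 and 1.60 ± 0.21). In STAT5cKO Gbp7 reached nearly the same level with 4T1 CM as with rmGM-CSF (-0.17 ± 0.18, adjusted p = 0.484), whereas in STAT5fl/fl its level was lower with 4T1 CM than with rmGM-CSF (-1.62 ± 0.19, adjusted p = 3.59e-06). Gbp3 rose by 0.66 ± 0.19 (adjusted p = 0.00899; 0.0532 without mouse 112 and 0.18 without mouse 113) and 0.80 ± 0.17. Gbp2 had values of 0.44 ± 0.16 and 0.41 ± 0.13 that were not called (adjusted p = 0.0299 and 0.0186) but passed with the mouse as a block (adjusted p = 0.00258 and 0.00147). In STAT5cKO DESeq2 and the likelihood ratio test also each called all 4 GBPs higher, Gbp2 included. None of the 4 immunity-related GTPases was called with 4T1 CM in either genotype.

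Among the OAS genes Oas2 rose in both genotypes (0.49 ± 0.12, adjusted p = 0.00251, and 0.54 ± 0.10, adjusted p = 0.000183), to 164.8 and 166.5 CPM in STAT5fl/fl and 161.7 to 179.9 CPM in STAT5cKO. In STAT5cKO Oas3 (0.33 ± 0.07), Oasl1, a negative regulator of Irf7 translation (0.41 ± 0.09), and Oasl2 (0.32 ± 0.08) were called as well. Their values in STAT5fl/fl were 0.24 ± 0.09, 0.21 ± 0.11 and 0.15 ± 0.09; with the mouse as a block Oas3 was called there too (0.24, adjusted p = 0.00649). The call of Oasl2 in STAT5cKO was lost without the library of mouse 115 with 4T1 CM (0.27, adjusted p = 0.012). Oas1a was not called. Ifit2 was called lower in STAT5fl/fl (-0.59 ± 0.12, adjusted p = 0.000738), at 59.4 and 49.2 CPM, and had a value of -0.22 ± 0.10 in STAT5cKO, and the other IFIT genes were not called.

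Both MX genes rose in both genotypes: Mx1 by 0.56 ± 0.15 and 0.74 ± 0.13, and Mx2 by 1.09 ± 0.17 and 0.87 ± 0.14. Genes with similar values in the 2 genotypes, chosen for mention after their values were seen, were Zbp1, a sensor of Z-form nucleic acid (1.22 ± 0.18 and 1.41 ± 0.15), Dhx58, the RIG-I-like receptor LGP2 (1.20 ± 0.11 and 1.12 ± 0.09), Isg15, a ubiquitin-like modifier (0.83 ± 0.14 and 0.74 ± 0.11), and Xaf1 (0.68 ± 0.08 and 0.70 ± 0.07). Trim25 was called higher in STAT5cKO (0.32 ± 0.05) and had a value of 0.21 ± 0.06 in STAT5fl/fl (adjusted p = 0.0122), and Ddx58 was called in STAT5cKO (0.33 ± 0.08; 0.29 with adjusted p = 0.0117, and so not called, without the library of mouse 115 with 4T1 CM) with a value of 0.29 ± 0.10 in STAT5fl/fl (adjusted p = 0.0247). Ifi44 was not called. Parp14 (-0.04 ± 0.09 and -0.07 ± 0.07) and Dtx3l (-0.01 ± 0.08 and 0.01 ± 0.06), which rose with rmGM-CSF, were not called.

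Irf1 moved in the opposite direction from that with rmGM-CSF. With 4T1 CM it was at 44.5 and 47.5 CPM in STAT5fl/fl and 47.5, 37.7 and 46.1 CPM in STAT5cKO, below every DMEM library. The fall was 0.91 ± 0.09 on the log2 scale in STAT5fl/fl and 0.80 ± 0.08 in STAT5cKO (log2 fold changes of -0.91 and -0.80, adjusted p = 3.4e-07 and 1.28e-07). Irf7 was at 161.9 and 152.9 CPM in STAT5fl/fl and at 135.9, 444.1 and 168.3 CPM in STAT5cKO, the highest value being that of mouse 115. It was called higher in STAT5cKO (1.17 ± 0.28, adjusted p = 0.00211) and not in STAT5fl/fl (0.58 ± 0.34, adjusted p = 0.176). All groups share an estimate of each gene's spread, so the library of mouse 115 also enters the SE in STAT5fl/fl. Without that library the value in STAT5cKO was 0.45 ± 0.08 (adjusted p = 0.000216). The interaction of Irf7 with 4T1 CM was then -0.12 ± 0.12 (adjusted p = 0.712), so a difference in response between the genotypes was not called. For Bst2 the library of mouse 115 was also the highest, at 109.5 and 108.9 CPM in STAT5fl/fl and 101.3, 236.7 and 113 CPM in STAT5cKO. It was not called in either genotype, but in STAT5cKO it was called with the mouse as a block (0.61, adjusted p = 0.00341), and without the library of mouse 115 its value there was 0.19 (adjusted p = 0.0254). Irf9 was called with the block in STAT5cKO alone (0.18, adjusted p = 0.00866, against 0.0104 without it).

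**Figure D5:**
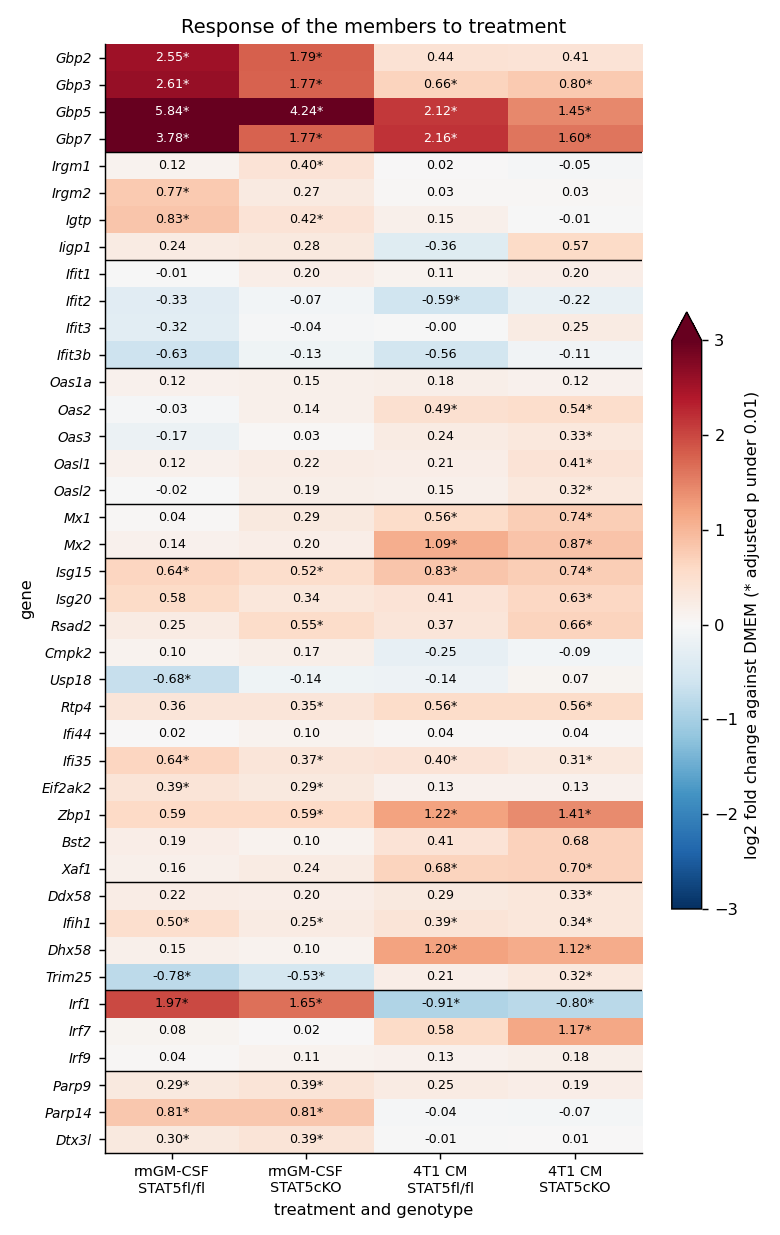
Heat map of the log2 fold change of rmGM-CSF or 4T1 CM over DMEM in each genotype for the 41 genes, with a star where the gene was called. The GBP rows are darkest with rmGM-CSF (Gbp5 5.84 and 4.24), Irf1 is positive with rmGM-CSF and negative with 4T1 CM, and the MX rows are starred with 4T1 CM only.

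With 4T1 CM 2 of 41 genes were called lower in STAT5cKO than in STAT5fl/fl, where 3.57% of all tested genes were, and 1 was called higher, where 4.13% were. Those called lower were Gbp5 (-1.04 ± 0.20, adjusted p = 0.00215) and Gbp7 (-1.03 ± 0.19, adjusted p = 0.0014), and for both all STAT5cKO libraries lay below the STAT5fl/fl libraries, as for 18.6% of all tested genes. Their calls were lost without mouse 113 (adjusted p = 0.0818 and 0.0674), and that of Gbp5 also without mouse 115 (adjusted p = 0.0169). Trim25 was called higher (0.32 ± 0.06, adjusted p = 0.00122), at 424.3, 451.8 and 438.6 CPM against 354.4 and 348 CPM, and was lost without mouse 112 (adjusted p = 0.0137) or 113 (0.0318). When the 5 libraries with 4T1 CM were fitted on their own, 0 of 41 genes were called. Irf7 was not called (0.66 ± 0.31, adjusted p = 0.173; -0.05 without the library of mouse 115).

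None of the 41 genes showed a called interaction with 4T1 CM, where 0.73% of all tested genes had a positive and 0.538% a negative one. In that test 2 of the 41 had an unadjusted p below 0.05, and DESeq2 called 0. The interaction of Gbp5 was -0.67 ± 0.36 (adjusted p = 0.436) and that of Gbp7 was -0.56 ± 0.32 (adjusted p = 0.467). Directly between the treatments in STAT5fl/fl, 10 of 41 were called lower with 4T1 CM than with rmGM-CSF (16.7% of all tested genes were) and 8 higher (13.8%). In STAT5cKO 8 were called lower (17.5%) and 10 higher (16.6%), and without the library of mouse 115 with 4T1 CM 8 and 8, the calls of Ifit3 (adjusted p = 0.0106) and Oas3 (0.0112) being lost. All 4 GBPs were called lower in STAT5fl/fl, whereas in STAT5cKO the exception was Gbp7. Irf1 was lower by the largest amount among the factors (-2.88 ± 0.10 and -2.45 ± 0.08), and Mx2 was called higher with 4T1 CM in both genotypes (0.95 ± 0.17 and 0.67 ± 0.14). Mx1 was called higher in STAT5cKO (0.44 ± 0.13), with a value of 0.51 ± 0.16 in STAT5fl/fl (adjusted p = 0.0146).

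The pathway above these genes was examined with fixed lists, whose counts between the genotypes stand against the shares of all tested genes called lower (6.24% with rmGM-CSF, 3.57% with 4T1 CM, 1.55% with DMEM) or higher (3.57%, 4.13% and 0.938%). Interferons themselves were near or below detection: of 15 ligand genes 0 passed the filter, 12 had no read in any library, and the highest single value was 0.312 CPM (Ifnb1, STAT5fl/fl mouse 112 with rmGM-CSF), where 3 counts correspond to 0.131 to 0.187 CPM. Of the 6 receptor genes 5 were tested, and with rmGM-CSF 2 of the 5 were called lower in STAT5cKO, the type I receptor gene Ifnar1 (-0.35 ± 0.06, adjusted p = 0.000714) and Il10rb, a shared subunit of the type III receptor (-0.24 ± 0.06, adjusted p = 0.00968). Ifnar1 rose strongly with both treatments, from 173.6 and 187.5 CPM to 437.3 and 448.3 CPM with rmGM-CSF and 427.6 and 464.7 CPM with 4T1 CM in STAT5fl/fl. In STAT5cKO it was at 171.7 to 185.9 CPM with DMEM, 324 to 359.6 CPM with rmGM-CSF and 451.4 to 475.3 CPM with 4T1 CM. Thus its genotypes were apart with rmGM-CSF and overlapped with the other treatments. The interferon gamma receptor genes Ifngr1 (0.30 ± 0.08, adjusted p = 0.02) and Ifngr2 (-0.19 ± 0.07, adjusted p = 0.061) and the type I receptor gene Ifnar2 (0.06 ± 0.06) were not called between the genotypes with rmGM-CSF.

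Of 5 signal transducers, 1 was called lower in STAT5cKO with rmGM-CSF, the kinase gene Jak2 (-0.31 ± 0.08, adjusted p = 0.00842). Stat2, which acts in the type I pathway, rose with rmGM-CSF in STAT5cKO (0.36 ± 0.08, adjusted p = 0.00151) and had a value of 0.28 ± 0.09 in STAT5fl/fl (adjusted p = 0.0233).

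Of 6 feedback inhibitors, 3 were called lower in STAT5cKO with rmGM-CSF: Socs3 (-1.96 ± 0.06), Socs1, the main brake on interferon gamma signalling (-1.67 ± 0.22), and the phosphatase gene Ptpn2 (-0.49 ± 0.10). Socs1 was at 6.11 and 4.78 CPM in STAT5fl/fl with rmGM-CSF and at 1.52 to 2.05 CPM in STAT5cKO. Of 12 genes that induce interferon, 5 were called lower with rmGM-CSF and 0 higher, and the 3 with the smallest adjusted p were the factor genes Irf5 (-0.69 ± 0.06) and Irf8 (-0.76 ± 0.07) and Tmem173, which encodes STING (-0.79 ± 0.08). With 4T1 CM 4 of the 12 were called lower, among them Irf8 (-0.48 ± 0.07), Tmem173 (-0.51 ± 0.07) and Tlr4 (-0.55 ± 0.09), and 3 higher: Tlr7 (0.49 ± 0.09), Ikbke (0.40 ± 0.09) and Ticam1 (0.38 ± 0.09).

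Genes related to the members but outside the list moved as follows. Of 11 further GBP and immunity-related GTPase genes 6 were tested, and with rmGM-CSF 2 were called lower in STAT5cKO, Gbp2b (-1.12 ± 0.10, adjusted p = 2.6e-07) and Gbp9 (-0.41 ± 0.10, adjusted p = 0.0096). Gbp2b went from 13.6 and 12.4 CPM to 93.7 and 116.1 CPM with rmGM-CSF in STAT5fl/fl and from 10.5 to 12.0 CPM to 42.4 to 52.1 CPM in STAT5cKO, and its interaction was called (-0.94). Not all of the 6 rose: with rmGM-CSF against DMEM in STAT5fl/fl 2 were called higher (15.9% of all tested genes were) and 0 lower. Their values there ran from -0.77 to 3.01 with a median of 0.04, and 3 were below 0. Between the genotypes with DMEM 1 was called lower in STAT5cKO, Tgtp2, whose near-identical copy Tgtp1 makes its count uncertain (-1.20 ± 0.23). Of 35 further type I interferon-induced genes 34 were tested, of which 3 were called lower with rmGM-CSF (Slfn8, -0.42 ± 0.08; Phf11b, -0.63 ± 0.14; Trim30a, -0.43 ± 0.10) and 2 with 4T1 CM (Trim30a, -0.45 ± 0.10; Ifi204, -0.53 ± 0.12), with 0 called higher in either. Those lower calls are 8.82% and 5.88% of the 34 genes, close to the 6.24% and 3.57% of all tested genes.

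Among 6 interferon gamma-responsive regulators and chemokines, 5 were tested and 2 were called lower in STAT5cKO with rmGM-CSF. Cd274, which encodes the checkpoint ligand PD-L1, was at 365.9 and 377.7 CPM in STAT5fl/fl and 75.3, 82.6 and 90.4 CPM in STAT5cKO (-2.17 ± 0.08, adjusted p = 1.99e-12). Cxcl10, which encodes a T cell-attracting chemokine, was at 70.3 and 90.5 CPM against 21.4, 22.1 and 24.7 CPM (-1.83 ± 0.13, adjusted p = 1.76e-08). For both the interaction with rmGM-CSF was called (-1.77 and -1.75). Cd274 was also lower with 4T1 CM (-1.06 ± 0.08) and with DMEM (-0.40 ± 0.08, adjusted p = 0.0053).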

How the data were processed

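RNA was sequenced as stranded TruSeq libraries. The authors trimmed reads (Trimmomatic 0.33), aligned them to GRCm38 (HISAT2 2.1.0) and deposited a table of raw counts per gene (featureCounts 1.6.2, reads on the gene's strand, ambiguous alignments dropped). A further STAT5fl/fl replicate that the study's quality control removed was not analysed here. From these counts, 13005 genes with over 1 CPM in at least 2 libraries were tested with edgeR 4.0.16 (R 4.3.3; relative log expression scaling, quasi-likelihood test, 6 groups in 1 model, Benjamini-Hochberg adjustment, threshold 0.01). Log2 CPM values, as in the family means, used a prior count of 2. Totals of 16016736 to 22883108 put 3 counts at 0.131 to 0.187 CPM; this floor covers counting error only. CPM and RPKM were computed on library totals multiplied by the scaling factors (0.945 to 1.08), which the floor leaves out, and on the deposited exon lengths. Replicates are separate mice, 2 and 3 a genotype. Each mouse gave 3 libraries, so its number pairs them: deviations from group means correlated within mice at 0.0926 to 0.213 over 6 STAT5fl/fl pairs and 0.0548 to 0.214 over 9 STAT5cKO pairs. With 2 STAT5fl/fl mice the deviations of 1 mirror those of the other, so each of those correlations is the same value counted for both mice. The 2 fits, with and without the mouse as a block, were both run. The genes, lists and tests were chosen with earlier results of these data known. Named were all GBP, immunity-related GTPase, IFIT and OAS genes, the 3 factors, others called between genotypes and the 2 most abundant of each other family. Alternatives were other scalings, filters and tools (limma 3.58.1, DESeq2 1.42.0), leaving out each mouse, and, added after seeing the data, leaving out 1 library. The edgeR script was tested on simulated data. 1 gene of the pathway lists is neither named nor reported here.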

Additional observations from a re-analysis of the deposited data

Results flagged for a closer look

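The rise with rmGM-CSF differed between the genotypes by test for Gbp5 (-1.60, STAT5cKO minus STAT5fl/fl, log2) and Gbp7 (-2.01), with adjusted p = 0.00686 and 0.000647 in edgeR's interaction test. Both calls depended on single mice: that of Gbp5 was lost without mouse 112, 113, 114 or 115, and that of Gbp7 without mouse 113.

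With 4T1 CM the change of Iigp1 from DMEM had opposite signs in the genotypes: it was -0.38 to -0.30 in the 2 STAT5fl/fl mice and 0.35 to 0.83 in the 3 STAT5cKO mice, a difference of means of 0.89 on the log2 CPM scale. edgeR's interaction test gave 0.93 ± 0.30 with adjusted p = 0.127, so this difference was not called. Iigp1 was at 1.39 to 5.21 CPM in all libraries. It was found by searching the 41 genes under both treatments for such opposite signs, and the share over all tested genes was not computed.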

How the results depend on the processing

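The alternatives were followed gene by gene for 40 called results. These were all calls between genotypes or in an interaction, and calls of GBP, immunity-related GTPase and factor genes with either treatment over DMEM. None of the 40 changed sign under the alternatives run, 26 kept their call throughout and 14 lost it at least once. Treatment calls of the other families, and all calls of 4T1 CM over rmGM-CSF, were not among the 40. The uncalled difference of Irf7 between the genotypes with 4T1 CM did change sign, from 0.66 to -0.05, without the library of mouse 115. With DMEM, the count of genes that differed between the genotypes was 1, against 2 without the low-count filter, 3 with the likelihood ratio test, 3 with DESeq2, 6 at a threshold of 0.05, 2 when only libraries with that treatment were fitted, and 0 to 1 when a mouse was left out. With rmGM-CSF it was 11, and 7 to 11 when a mouse was left out. With 4T1 CM it was 3, against 5 at 0.05, 0 when only libraries with that treatment were fitted, and 0 to 4 when a mouse was left out. For rmGM-CSF over DMEM in STAT5fl/fl it was 16 (10 to 17 when a mouse was left out) and in STAT5cKO 18 (12 to 16). For 4T1 CM over DMEM it was 15 (8 to 18) in STAT5fl/fl and 22 (17 to 24) in STAT5cKO, and for 4T1 CM over rmGM-CSF 18 (10 to 19) and 18 (14 to 17). The interaction with rmGM-CSF was called for 2 genes, against 4 at 0.05, 4 with the replicate block, and 0 to 2 when a mouse was left out; with 4T1 CM it was called for 0 throughout. Leaving out a STAT5fl/fl mouse left 1, which was assumed to vary like the other groups. Over all tested genes the calls between genotypes changed too. With DMEM the main test called 0.938% of 13005 higher and 1.55% lower. The likelihood ratio test called 608 of them, DESeq2 557, and the threshold of 0.05 gave 910. Without the low-count filter 453 of 25884 were called, and 277 of 12405 when only libraries with DMEM were fitted. With 4T1 CM 1957 of 13005 were called at 0.05, and 280 of 12476 with those libraries alone. The cause was not tested, beyond fewer samples and the other threshold. The replicate block, fixed within mice, gave 19, 18, 19 and 25 genes for the treatments over DMEM; as a random effect it gave 1, 11 and 3 between genotypes.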
